A study of Mus musculus with 5 samples.

Results

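The imprinted growth genes followed here were Phlda2, Cdkn1c, H19, Dlk1, Peg3, Mest, Grb10, Ndn and Plagl1, 9 genes chosen by name and read through every array probe set that carried the symbol of that gene alone. Of the 9, 8 had such a probe set, 24 probe sets in all, out of 18193 genes represented on the array. H19, a long non-coding RNA, was annotated only on 1 probe set that it shared with the microRNA gene Mir675, so no value is given for it. In an imprinted gene the copy from one parent is silenced by marks set in the germ line, chiefly DNA methylation, and the copy from the other parent is transcribed. Many such genes act on fetal growth: those transcribed from the maternal copy often restrain it and those from the paternal copy often promote it. In most tissues Phlda2, Cdkn1c, H19 and Grb10 are transcribed from the maternal copy, and Dlk1, Peg3, Mest, Ndn and Plagl1 from the paternal copy. The arrays do not separate the parental copies.

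The cells were primary rib chondrocytes of FVB mouse embryos at gestational day 18.5, released by collagenase and trypsin and grown on gelatin in serum medium to which ascorbic acid and beta-glycerophosphate had been added. There were 5 arrays, 1 each for days 2, 6, 9, 12 and 15, and all shared the strain, the embryonic age and the medium. With no repeat array, a difference between 2 days could not be set against replicate error, and the labels do not say whether the 5 dishes came from a common isolate. Values are probe-set intensities on a linear scale, and the number of arrays limits their precision. A floor of 73.1 was used, the 40th percentile over the 5 arrays, and lower intensities were raised to it before log2 was taken. Where a gene lay under the floor on either day of a comparison, its fold is a bound, written "at least". A gene is given by its brightest probe set unless another is named. Intensity depends on the probes, so levels were not compared between genes. The probe-set SD of the log2 difference between days 15 and 2 was 0.68, estimated from the 3317 genes with exactly 2 probe sets. The dimmer of the 2 could lie below the floor, so the SD is not probe error alone. It is a rough guide that leaves out variation between dishes and arrays.

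Chondrocyte markers were present throughout: all 16 listed, among them Col2a1 (type II collagen) and Acan (aggrecan), passed the intensity filter. Of the 16, 12 were at least 2-fold lower on day 15 relative to day 2, where 11.6% of all genes were. Only Matn1 was at least 2-fold higher, at 3.50-fold, where 16.2% of all genes were, and 3 were within 2-fold. The summed intensity of the 16 was 175426, 184475, 113811, 47694 and 56444 on days 2, 6, 9, 12 and 15. Summed fibroblast markers ran the other way, with 6623, 34945, 101490, 129030 and 159778. So did the 6 osteoblast markers with a probe set, which summed to 883, 8219, 31322, 54938 and 79289. All 6 were at least 2-fold higher on day 15 relative to day 2, where 16.2% of all genes were. Col1a1, the type I collagen gene, is in both lists, with 313, 7029, 15594, 23947 and 36146. The part of these markers in the values of the imprinted growth genes was not tested. In these bulk samples fewer cells of a type and less RNA per cell cannot be told apart.

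The bases upstream of the start site show what lies in front of the pair of genes that were at least 2-fold lower on day 15, Phlda2 and Peg3, and of a pair that ended level, Mest and Ndn. The sequences are RefSeq's, build GRCm38.p6, 250 bases ending at the start site, 5′ to 3′ on the strand of the gene. Capitals mark a GC box (GGGCGG, or CCGCCC on the other strand) or the palindrome GGGGCCCC, a site reported for the protein that Plagl1 encodes. The windows are chr7:143502525-143502774 on the minus strand for Phlda2, chr7:6730420-6730669 on the minus strand for Peg3, chr6:30737800-30738049 on the plus strand for Mest, one of 3 starts listed, and chr7:62348027-62348276 on the plus strand for Ndn.
Phlda2: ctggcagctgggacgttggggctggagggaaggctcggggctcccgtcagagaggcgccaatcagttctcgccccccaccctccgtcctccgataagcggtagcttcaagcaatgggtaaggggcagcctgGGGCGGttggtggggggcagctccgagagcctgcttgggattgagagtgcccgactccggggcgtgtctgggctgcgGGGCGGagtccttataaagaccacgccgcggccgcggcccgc
Peg3: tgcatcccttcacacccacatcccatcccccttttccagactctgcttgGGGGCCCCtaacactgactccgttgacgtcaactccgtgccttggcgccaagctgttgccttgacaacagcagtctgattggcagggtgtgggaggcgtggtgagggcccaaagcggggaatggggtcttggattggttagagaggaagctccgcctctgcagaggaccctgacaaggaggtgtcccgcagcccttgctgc
Mest: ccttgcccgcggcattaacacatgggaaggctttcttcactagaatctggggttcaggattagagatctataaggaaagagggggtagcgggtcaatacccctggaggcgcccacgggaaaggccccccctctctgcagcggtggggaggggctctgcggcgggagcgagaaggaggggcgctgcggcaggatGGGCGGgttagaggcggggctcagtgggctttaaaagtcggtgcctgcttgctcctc
Ndn: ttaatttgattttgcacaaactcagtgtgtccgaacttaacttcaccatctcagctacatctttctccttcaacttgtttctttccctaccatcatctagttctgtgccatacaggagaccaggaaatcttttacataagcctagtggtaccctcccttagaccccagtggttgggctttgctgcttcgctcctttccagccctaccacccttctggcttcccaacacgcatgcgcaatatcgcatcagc

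The Phlda2 window held 21 CpG pairs, 2 GC boxes and 1 TATA box (TATAAA on either strand). The Mest window held 14 CpG pairs and 1 GC box, the Peg3 window 8 CpG pairs and 1 GGGGCCCC palindrome, and the Ndn window 5 CpG pairs and none of these motifs. Over all 32851 promoter windows of the same length the median was 6 CpG pairs. A GC box occurred in 32.7% of them, a TATA box in 12.4%, an E box in 6.02% and the palindrome in 0.889%. No motif overlapped another in the 4 windows, and a match is a description of letters only. Plagl1 had 19 CpG pairs, 2 GC boxes and 1 E box (CACGTG) in its window. Dlk1 had 8 CpG pairs and no match, and the 2 windows of Grb10 held 40 and 8 CpG pairs. No window is given for Cdkn1c.

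At day 15 against day 2 the imprinted growth genes were lower, higher or within 2-fold, and genes with the same outcome could differ in course. Phlda2 was below the floor from day 9 on, Peg3 was lower at the end, Cdkn1c was higher on every later day, and Dlk1, Mest, Grb10, Ndn and Plagl1 ended within 2-fold of day 2. At day 15 against day 2, 2 of the 8 measured genes were at least 2-fold lower, where 11.6% of all 11075 genes past the intensity filter were, and 1 was at least 2-fold higher, where 16.2% were. The median log2 difference of the 8 was -0.16, against 0.00 over all genes. With 8 genes these shares are not a result about the group. All 8 passed the filter, Phlda2 through its values on days 2 and 6 alone. Of the 24 probe sets, 17 were above the floor on every array and 5 below it on every array.

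**Figure D1:**
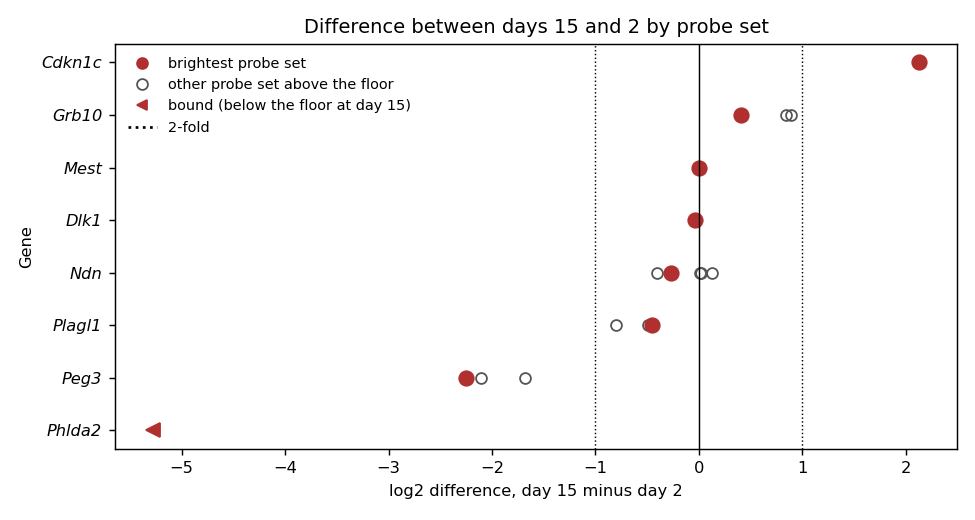
Difference on the log2 scale between days 15 and 2 (day 15 minus day 2, horizontal axis) for each probe set of the 8 genes that lies above the floor on every array, and the bound for Phlda2; filled red marks are the brightest probe set of a gene and open circles its others. Cdkn1c stands at 2.13, the 3 probe sets of Peg3 lie between -2.25 and -1.68, Phlda2 is at or beyond -5.27, and the other 5 genes lie inside the dotted 2-fold lines.

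A straight line of log2 intensity on day was fitted to all 11075 genes with limma, the one test that was run. With 1 array a day, its SE and p reflect scatter about the line, bends in the course included, and not replicate error alone. None of the 8 genes passed (0 of 8 at an adjusted p under 0.05, where 0.0542% of all genes did), and 2 of 8 had an unadjusted p under 0.05, where 27.1% did. Phlda2 had a slope of -0.40 ± 0.09 (SE) log2 units per day with an adjusted p of 0.0867 by limma. Of its 5 fitted values 3 are the floor itself, and without the day 2 array the slope was -0.17 with a limma adjusted p of 0.399. Peg3 had a slope of -0.16 ± 0.04 with an adjusted p of 0.0882 by limma, and without the day 15 array the slope was -0.09 with a limma adjusted p of 0.132. For Cdkn1c, whose course was not straight, the slope was 0.13 ± 0.09 with an adjusted p of 0.387 by limma, and without the day 2 array it was -0.10, while without the day 15 array it was 0.26. The other 5 genes had limma adjusted p-values between 0.247 and 0.96.

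Phlda2 encodes a small pleckstrin homology-like protein best known for restraining growth of the placenta. Its 1 probe set, 1417837_at, had intensities of 2830, 240.1, 50.8, 7.88 and 61.1 on days 2, 6, 9, 12 and 15. It was high at day 2 only, and days 9, 12 and 15 lay below the floor and have no order among themselves. Day 6 was 11.8-fold lower than day 2, day 9 at least 3.28-fold lower than day 6, and day 15 at least 38.7-fold lower than day 2. A log2 span as large over the 5 days was found in 0.497% of the 11075 genes.

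The genes whose courses lay closest to that of Phlda2 were the kallikrein-related peptidase genes Klk10 and Klk8. Likeness was measured as the root mean square difference between log2 courses, each centred on its own mean over the 5 arrays, and was 0.40 for Klk10 and 0.42 for Klk8, so the match was loose. Klk10 had 4091, 452, 180.1, 98.5 and 80.3. Some markers of keratinocytes and simple epithelia were lower on the later days as well. Of 9 such genes with a probe set, 5 passed the filter. Of those, 3 were lower by 2-fold or more on day 15 relative to day 2, with 0 higher. Over all genes the shares were 11.6% and 16.2%. The summed intensity of the 9 was 4212, 1059, 741, 827 and 804, with Krt19 below the floor on every array and Krt18, the keratin of simple epithelia, at 2052, 219, 126, 89.6 and 103. Pkp2, a desmosome gene, had 1075, 105.4, 42.3, 49.6 and 38.8, so Krt18 and Pkp2 held most of the day 2 sum. Epcam, an epithelial adhesion gene, was not lower, with 233, 184.6, 302, 298 and 307, and Cdh1, the E-cadherin gene, had 5.56, 77.6, 94.8, 97.0 and 5.17. Their part in the Phlda2 result was not tested.

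**Figure D2:**
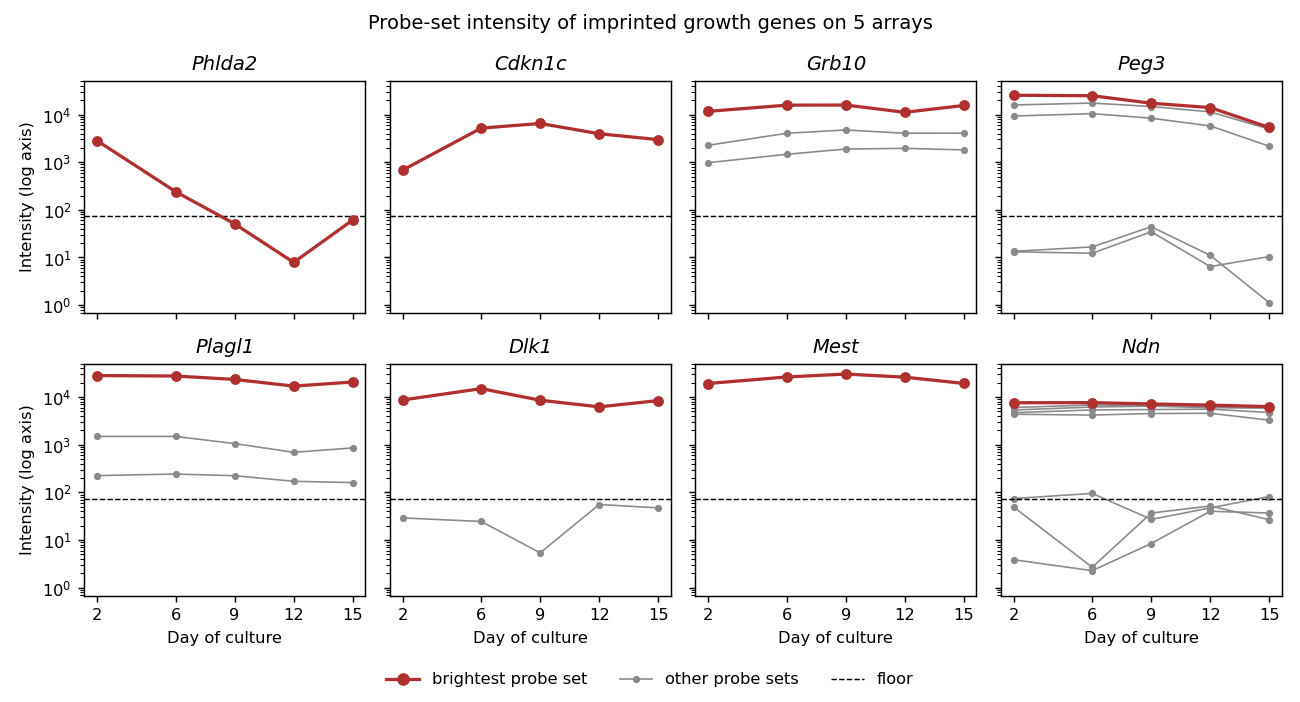
Intensity of every probe set (log axis) against day of culture for 8 imprinted growth genes; the red line is the brightest probe set of a gene, grey lines its others and the dashed line the floor at 73.1. Phlda2 crosses below the floor between days 6 and 9, Cdkn1c is highest at day 9 with 6494, and Peg3 is lowest at day 15 in all 3 of its bright probe sets.

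Cdkn1c encodes a cyclin-dependent kinase inhibitor that holds cells out of the cycle, and mice without it have disturbed growth plate cartilage. Its 1 probe set, 1417649_at, had 680, 5188, 6494, 3959 and 2975 on days 2, 6, 9, 12 and 15. Day 2 was the lowest array and day 9 the highest, and the 4 later days all lay above day 2. Day 6 was 7.63-fold higher than day 2, day 9 was 9.55-fold higher and day 15 was 4.38-fold higher. After the peak the order turned, and day 15 was 2.18-fold lower than day 9 and 1.74-fold lower than day 6. Its span was matched or passed by 2.87% of genes.

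The courses closest to that of Cdkn1c were Fbn2, a fibrillin gene of microfibrils, at 0.19 and Gas1, which encodes a membrane-anchored protein first found in growth-arrested cells, at 0.20. Gas1 had 547, 5578, 6494, 3507 and 3586. Proliferation markers summed to less on each later day than on day 2. Their summed intensity over 14 genes was 77755, 51095, 32379, 35867 and 38921, lowest on day 9. Of the 14, 6 were lower by 2-fold or more on day 15 relative to day 2 and 0 higher. Over all genes the shares were 11.6% and 16.2%. The part of proliferation in the Cdkn1c values was not tested.

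**Figure D3:**
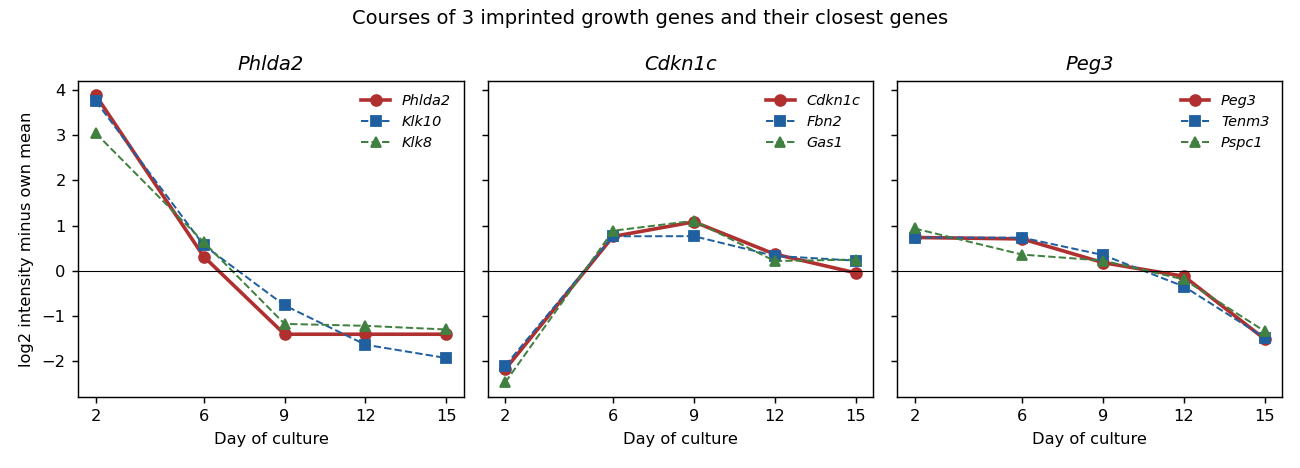
Courses of Phlda2, Cdkn1c and Peg3 with the 2 genes closest to each, as log2 floored intensity minus the mean over the 5 arrays (vertical axis) against day of culture. Klk10 and Klk8 run beside Phlda2, Fbn2 and Gas1 beside Cdkn1c with their highest value at day 9, and Tenm3 and Pspc1 beside Peg3 with their lowest value at day 15.

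Grb10, whose protein binds the insulin and IGF1 receptors and dampens their signal, was the third gene of maternal transcription with values. Its brightest probe set had 11666, 15755, 15830, 11143 and 15510, with no run in one direction. The 2 dimmer probe sets had 2262, 4051, 4746, 4055 and 4065, and 976, 1465, 1887, 1954 and 1812, both lowest on day 2. At day 15 against day 2 the 3 probe sets averaged a log2 difference of 0.72 ± 0.27 (SD over probe sets), all between 1.33-fold and 1.86-fold higher and none past 2-fold. All 3 carry a suffix given to probe sets that read several transcripts of a gene. The genes nearest in course to the brightest probe set were Keap1 at 0.01 and Ski at 0.03, with 1456 of 9590 genes within 0.25. That limit is wide beside a span of 1.42-fold, so the count does not show a shared shape.

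Peg3 encodes a zinc finger protein, and mice that inherit a mutant paternal copy are small. Its brightest probe set, 1417355_at, had 25417, 24854, 17281, 14018 and 5354 on days 2, 6, 9, 12 and 15. The other 2 above the floor had 15838, 17425, 14736, 11390 and 4941, and 9313, 10451, 8381, 5767 and 2168. All 3 were lowest on day 15, with days 2 and 6 close together. At day 15 against day 2 they were 3.21-fold to 4.75-fold lower, a log2 difference of -2.01 ± 0.29 (SD over 3 probe sets), while the other 2 probe sets of Peg3 were below the floor on every array. Most of the difference lay in the last step, where day 15 was 2.62-fold lower than day 12 by the brightest probe set. Day 12 was 1.81-fold lower than day 2, under the 2-fold mark, so the 2-fold call rests on the day 15 array.

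Tenm3, a teneurin gene, lay at 0.13 from the course of Peg3, and Pspc1, which encodes a paraspeckle protein, at 0.20. Only 12 of 9590 genes lay within 0.25. Tenm3 had 1734, 1733, 1327, 820 and 374. A span as large as that of Peg3 was found in 8.37% of genes.

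Plagl1 encodes a zinc finger transcription factor that slows the cell cycle and binds at other imprinted genes. Its brightest probe set had 28208, 27582, 23403, 16941 and 20664, lowest on day 12. A second had 1494, 1491, 1053, 691 and 855, and the dimmest 224, 242, 223, 170.5 and 159.8. In all 3 the 2 latest days lay below days 2 and 6, and no probe set was past 2-fold at day 15. The mean log2 difference at day 15 against day 2 was -0.58 ± 0.19 (SD over 3 probe sets). At day 12 against day 2 it was -0.75 ± 0.36, where 1 of the 3 probe sets was 2.16-fold lower. The brightest of the 3 is of a class that can bind other transcripts too. Lbr, the lamin B receptor gene, lay at 0.02 and Zfp93 at 0.04, with 1723 genes within 0.25.

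Dlk1 encodes a membrane protein of the Notch ligand family, shed from preadipocytes, that holds back fat cell differentiation. The probe set above the floor had 8662, 14997, 8562, 6218 and 8417 on days 2, 6, 9, 12 and 15, highest on day 6 and lowest on day 12, a span of 2.41-fold. Day 6 was 1.73-fold higher than day 2, and day 15 was level with it, with a log2 difference of -0.04 as deposited and 0.10 with arrays centred on their medians. Its other probe set was below the floor on every array. Of 8 measured adipocyte markers, 6 were higher by 2-fold or more on day 15 relative to day 2 and 0 lower. Over all genes the shares were 16.2% and 11.6%. The adipocyte summed intensity was 3613, 12339, 59720, 104308 and 54387, so Dlk1 was lowest on the day that sum was highest. The chondrocyte sum was lowest on day 12 as well, at 47694, and so were Grb10 and Plagl1 by their brightest probe sets. The part of adipocytes in the Dlk1 values was not tested. Adipoq, the adiponectin gene, had 79.3, 79.6, 5191, 16395 and 5924. Pde3a, a phosphodiesterase gene, lay nearest to Dlk1 at 0.08 and Prr12 at 0.10.

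Mest, a gene of the hydrolase fold family used as a marker of growing mesoderm, had 19214, 26368, 30334, 26125 and 19293. It peaked on day 9 at 1.58-fold over day 2 and was back at the day 2 value on day 15, with a log2 difference of 0.01, -0.07 after quantile normalization. Ankfy1, which acts in endosome traffic, lay at 0.01 and the kinase gene Limk2 at 0.03. Ndn, which encodes necdin, a MAGE family protein that binds cell cycle and survival factors, was the steadiest of the 8. Its brightest probe set had 7594, 7627, 7166, 6763 and 6292, a span of 1.21-fold, and 96.4% of genes had a span as large. That probe set is of the class that can bind other transcripts too, and 1415923_at, of another class, had a span of 1.39-fold. Over the 5 Ndn probe sets above the floor the log2 difference between days 15 and 2 was -0.10 ± 0.23 (SD). The values lay between -0.41 and 0.13, so the probe sets disagreed on the sign. A sixth was above the floor on 3 arrays and the remaining 2 on none. Gpbp1 at 0.01 and Pitpnb at 0.02 lay nearest, and 3361 genes lay within 0.25.

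The steps between arrays differed in which gene moved. At day 6 against day 2, 1 of the 8 genes was at least 2-fold higher (Cdkn1c), where 10.2% of all genes were, and 1 at least 2-fold lower (Phlda2), where 5.7% were. At day 9 against day 6, 1 was lower (Phlda2), where 4.06% were, and 0 higher, where 5.87% were. At day 12 against day 9 none of the 8 passed 2-fold in either direction, where 1.72% of all genes were higher and 1.51% lower. At day 15 against day 12, 1 was lower (Peg3), where 3.92% were, and 0 higher, where 4.23% were. Set against day 2, the counts stayed at 1 higher and 1 lower on day 9, where 15.1% and 10.3% of all genes were, and on day 12, where 16.1% and 11.4% were. Day 15 against day 6 gave 2 lower (Phlda2 and Peg3), where 6.16% were, and 0 higher, where 8.42% were. Day 15 against day 9 gave 2 lower (Cdkn1c and Peg3), where 4.05% were, and 0 higher, where 5.0% were.

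Imprinted genes lie in clusters, and other genes of the clusters around these 8 were read on the same arrays. Phlda2, Slc22a18 and Cdkn1c are neighbours in one cluster on chromosome 7. There Phlda2 was at least 38.7-fold lower on day 15 relative to day 2 and Cdkn1c was 4.38-fold higher. The brightest probe set of the transporter gene Slc22a18, below the floor on day 2, had 15.8, 267, 188, 202 and 134.9, at least 1.84-fold higher. Its other probe set, above the floor on every array, had 89.1, 91.4, 168, 172 and 228, 2.56-fold higher. Nap1l4, Osbpl5, Tssc4, Cd81 and the antisense RNA gene Kcnq1ot1 of the same cluster were within 2-fold. A dimmer probe set of Kcnq1ot1 had a log2 difference of -1.15, a bound, while its others were within 2-fold or below the floor. Tspan32 was at least 2.69-fold higher, but lower by its other probe set, with a log2 difference of -1.49. So neighbours in this cluster did not share a direction.

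Beside Peg3, 1 gene passed the intensity filter, and it was lower too. Zim1, a zinc finger gene, had 177, 351, 242, 173 and 29.8, at least 2.43-fold lower on day 15 relative to day 2. Usp29, a ubiquitin protease gene that shares a start region with Peg3 in mouse, had 171, 135, 45.6, 16.3 and 15.9, at least 2.34-fold lower, but its mean was under the intensity filter, as were those of Zim2 and Zim3. Zim1 shared with Peg3 its lowest value on day 15, while Usp29 was already below the floor on day 9.

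In the Dlk1 cluster the paternal gene was level and the maternal non-coding RNA gene Meg3 was 2.54-fold higher, with 3856, 9251, 8895, 7827 and 9812. Of the 10 other probe sets of Meg3, 4 were also at least 2-fold higher, with day 15 values between 2241 and 5561. Another 4 were lower, with day 15 values between 58.2 and 257 and log2 differences between -1.84 and -0.04. The direction thus differed between brighter and dimmer probe sets. Mirg, another maternal RNA gene, was 2.44-fold higher (log2 difference 0.52 by another probe set), and Rian was level at -0.04 by its brightest probe set. The other probe sets of Rian had log2 differences between -0.83 and 0.53. Beside Grb10, Ddc, the dopa decarboxylase gene, was 3.78-fold higher, with 577 on day 15 and 152 on day 2, and Cobl, an actin nucleator gene, was at least 1.29-fold lower. Beside Mest, Klf14, a zinc finger gene, was 1.60-fold higher with a day 9 peak of 563, and Copg2 was level with a log2 difference of 0.02. Sgce, elsewhere on the same chromosome, stood at 0.73 and at 1.03 by its other probe set, and Peg10 beside it and Ascl2 near Phlda2 were under the intensity filter. Beside Ndn, Magel2 was 1.45-fold lower, Peg12 2.37-fold lower and Atp10a 2.23-fold lower, while Ube3a, a ubiquitin ligase gene, was level with 3536 on day 15 and 3535 on day 2. The 5 other probe sets of Ube3a had log2 differences between -0.82 and 0.92. In the same cluster Snrpn and Mkrn3, each by its only single-gene probe set, were below the floor on every array. Probe sets with several gene symbols were not read, so these values do not show that either gene was silent. Igf2, the growth factor gene next to H19, had 16068, 38657, 34836, 33725 and 31518, 1.96-fold higher on day 15 relative to day 2, and 2.72-fold by its other probe set.

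**Figure D4:**
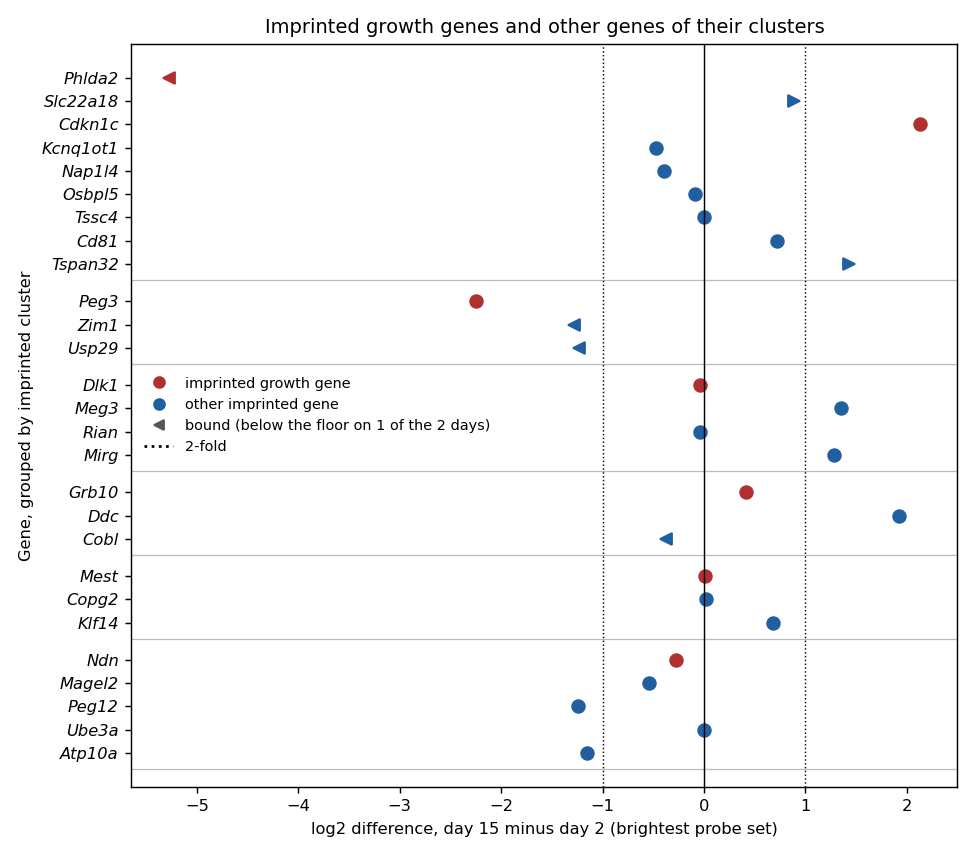
Difference on the log2 scale between days 15 and 2 (day 15 minus day 2) for the imprinted growth genes in red and other imprinted genes of their clusters in blue, by brightest probe set; triangles are bounds. Phlda2 and Cdkn1c, in the uppermost cluster, stand at -5.27 and 2.13 on either side of 0, and Peg3, Zim1 and Usp29 are all below -1.

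A list of 69 other mouse genes described as imprinted in some tissue gives the wider setting. Of these, 59 were represented by a single-gene probe set and 42 passed the intensity filter. At day 15 against day 2, 10 of the 42 were higher by 2-fold or more, where 16.2% of all genes were. Lower by as much were 7, where 11.6% of all genes were. The median log2 difference was 0.34 against 0.00 over all genes. Whether the list differs from genes in general was not tested. The share within 2-fold was 59.5% of the list and 72.2% of all genes. The 10 higher genes were Dcn (decorin, a small proteoglycan), at 7.68-fold, Dlx5 (a homeobox factor of bone), at least 7.82-fold, Pon3 at 5.72-fold, Ddc, Ampd3 at 3.06-fold, Airn at 2.75-fold, Tspan32, Meg3, Mirg and Ppp1r9a, at least 2.15-fold. The 7 lower genes were Asb4 at 6.04-fold, Mcts2 at 3.44-fold, Igf2r at 2.55-fold, Axl at 2.03-fold, Zim1, Peg12 and Atp10a. Of these 17 genes, 8 had another probe set above the floor on either day, and in 6 of the 8 at least 1 such probe set did not reach 2-fold in the same direction. Igf2r, the receptor that clears IGF2, was level by its other probe set, with a log2 difference of 0.04.

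Genes whose products act beside those of the imprinted growth genes were read on the same arrays. Of 27 measured genes of IGF and insulin signalling, Notch signalling and cell cycle entry, 22 were within 2-fold at day 15 against day 2, 3 were above that range and 2 below it, where 72.2% of all genes were within it, 16.2% above and 11.6% below. With a median log2 difference of 0.07 against 0.00, these counts are not a result about the list. Igf1, the growth factor whose receptor GRB10 binds, was 27.3-fold higher, with 209.3, 1843, 8299, 10074 and 5708, and its other 3 probe sets had log2 differences between 4.11 and 5.85, the last a bound since day 2 was below the floor. Cdkn1b, a relative of Cdkn1c in the same inhibitor family, was 2.30-fold higher, but lower by a dimmer probe set at -0.28. Cyclin D3 (Ccnd3) was 2.05-fold higher, with a log2 difference of -0.65 by a dimmer probe set. The 2 lower genes were Igf2r and Cdk6, a kinase of cell cycle entry, at 2.41-fold. The IGF1 receptor gene Igf1r had 1860, 1177, 1102, 1265 and 2223. Its brightest probe set was 1.20-fold higher on day 15 relative to day 2, and its 4 others had log2 differences between -0.55 and -0.15.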

How the data were processed

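Total RNA of mouse rib chondrocytes in culture was measured on 5 one-colour oligonucleotide arrays, 1 for each of days 2, 6, 9, 12 and 15. The deposited values were linear probe-set intensities, and the submitters' processing notes name MAS5, whose version is not given in the sources used here. All 5 arrays had the same trimmed mean, 500.003 without the top and bottom 2% of values, so a change in total RNA common to all genes cannot be read from them. Detection calls were not used here.

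Probe sets with 1 gene symbol in the platform annotation were used, 34945 of 45101, with symbols updated through RefSeq's gene table of assembly GRCm38.p6 (names only). Values were floored at the 40th percentile, 73.1. A gene was kept when its brightest probe set averaged at least 105.9, the median of the probe-set means, leaving 11075 genes. With 1 array a day, differences were called at 2-fold with no test. The trend test was limma 3.58.1 under R 4.3.3, two-sided, with lmFit, eBayes and Benjamini-Hochberg adjustment over 11075 genes, checked on simulated data. Other steps used Python 3.11.15, pandas 2.3.3, numpy 2.4.6, scipy 1.17.1 and matplotlib 3.10.9.

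The genes, gene lists and tests were chosen with earlier results of these data known. Genes named were the 9 imprinted growth genes, list genes past 2-fold, list genes of their clusters, the 2 closest courses to each gene (root mean square difference of centred log2 courses, among genes below the floor on no more arrays) and single marker genes. Nap1l4, Osbpl5, Tssc4, Cd81, Mkrn3, Zim2, Zim3, Ube3a, Cobl, Klf14, the growth partners, Krt19, Pkp2, Epcam and Cdh1 were chosen for mention after their values were seen. Alternatives were quantile normalization, centring on the median, other floors, a pseudocount, the mean over probe sets, other filters, other days and leaving out each array.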

Additional observations from a re-analysis of the deposited data

How the results depend on the processing

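The count of 2 imprinted growth genes lower by 2-fold or more on day 15 relative to day 2 (Phlda2 and Peg3) held under all 10 alternatives. All 10 use the day 15 array. At day 12 against day 2 the count was 1 (Phlda2), since Peg3 was 1.81-fold lower. The count of 1 higher (Cdkn1c) became 0 with day 6 in place of day 2 and 0 with days 12 and 15 pooled against days 2 and 6. Against day 6 the log2 difference of Cdkn1c was -0.80, the opposite sign, since it was highest on days 6 and 9. Of 80 single-gene differences under the alternatives, 71 moved by less than 0.68, the SD from 1 probe set. Many of these could not move. Other filters left every value unchanged, other floors changed only Phlda2, and averaging cannot change a gene with 1 probe set. Phlda2 ranged from -5.53 to -1.72 and Peg3 from -2.25 to -1.21, the last as the mean over probe sets that include 2 below the floor. For other imprinted genes the count of 10 higher was 6 with the mean over probe sets, 6 with the filter at the 70th percentile, 3 against day 6 and 4 with days pooled, and the cause was not tested beyond the fewer genes left by that filter. Centring arrays on their medians moved the median of all genes by 0.14 (log2). No imprinted growth gene passed the limma trend test under any alternative, with an adjusted p of 0.0652 to 0.399 for Phlda2 and 0.0638 to 0.269 for Peg3. Over all genes that test called 6, and between 0 and 204 under the alternatives, with 0 when any 1 array was left out. No paired analysis was possible because each day has 1 array and the labels give no replicate numbers.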
